A study of Hyphopichia burtonii and Hyphopichia pseudoburtonii with 16 samples.

Results

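The yeast Hyphopichia burtonii was followed here from 15 to 30 min after sodium chloride was added. The comparison sets 2 RNA-seq libraries of 30 min against 2 of 15 min and covers every gene with at least 1 FPKM (fragments scaled by transcript length and library total) in at least 2 of the 8 libraries of the species. That rule kept 6047 of 6115 genes, and 4973 of them carry a protein name credited to Swiss-Prot. All cells were wild-type strain KJJ43, isolated from Nuruk, a Korean cereal starter for fermentation. Cultures were inoculated at an OD600 of 0.6 in YPD, a rich glucose medium, and grown to 2.0. A 0 min sample was then taken, an equal volume of YPD holding 2 M NaCl was added to reach 1 M, and further samples were taken at 5, 15 and 30 min. Both sides of the comparison had therefore received the salt, the fresh medium and the dilution, and no course with medium but no added salt was analysed here, so that time, salt and feeding cannot be told apart. The whole series holds 16 libraries, the other 8 from wild-type strain KJS14 of the related species H. pseudoburtonii, also isolated from Nuruk, in the same scheme.

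In Saccharomyces cerevisiae, a budding yeast, hyperosmotic shock activates the MAP kinase Hog1. The cell then makes and retains glycerol, a compatible solute, and expels sodium through Ena ATPases and the antiporter Nha1, while much of the early wave of gene expression is transient. Expression for growth, such as that of ribosomal proteins, is commonly held back during acute stress and returns as cells adapt. The roles named below are those known for the protein each gene is named after, mostly from S. cerevisiae or Candida albicans. Gene positions are those in the authors' table, with a genome build not given in the sources used.

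The 15 and 30 min libraries were of like depth by an estimate from the smallest values, at 0.605 and 0.827 of the deepest library at 15 min and 0.615 and 0.815 at 30 min. Replicates correlated at 0.966 at 15 min and 0.983 at 30 min over log2(FPKM + 1), and the 4 pairings of a 15 with a 30 min library at 0.924 to 0.945. True depth is unknown, since no read counts were given. No label says if both libraries of a time point stem from different cultures, so the p-values measure the spread between libraries, which may be technical. That spread was taken over all 8 libraries of the species. At the other times, replicates correlated at 0.955 (0 min) and 0.989 (5 min).

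Between 15 and 30 min, 574 genes rose and 407 fell at an adjusted p under 0.05 in limma, 9.49% and 6.73% of the genes tested. The falls were the larger, with a median size of 1.40 on the log2 scale against 1.03 for the rises. Of the fallen genes 101 changed at least 4-fold, and of the risen genes 28. In every called gene both 30 min libraries lay on 1 side of both 15 min libraries. Both 30 min libraries lay above all 6 other libraries in 535 of the 574 risen genes, against 29.7% of all genes. They lay below all 6 in 326 of the 407 fallen genes, against 9.96% of all genes. Much of this contrast follows from the choice of called genes, whose 30 min libraries already lay past both of 15 min. Of all 2219 genes with both 30 min libraries above both of 15 min, 1795 also lay above the other 4, and of the 1322 below, 602 lay below the other 4.

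The risen genes together held 8.2 and 6.9% of all FPKM in the 15 min libraries and 15.7 and 15.9% at 30 min. The fallen genes held 26.1 and 26.7% of all FPKM at 0 min, 15.5 and 16.1% at 15 min, and 5.3% in both libraries of 30 min. These shares describe genes chosen by the same comparison and are no separate test. The 30 min change of the median gene was 0.13 on the log2 scale, and scaling each library by its median ratio moved it by about that amount, to -0.01. With that scaling 284 genes rose and 482 fell, so that rises made up 37.1% of the calls in place of 58.5%. With quantile scaling the counts were 376 and 501, or 42.9% rises. Genes tested without 1 library gave from 78 to 737 rises and from 162 to 502 falls. The counts moved by over 1.5 times without 5 min replicate 1 (265 and 258) or 2 (266 and 258), 15 min replicate 2 (208 and 227), and 30 min replicate 1 (78 and 162) or 2 (143 and 206).

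**Figure D1:**
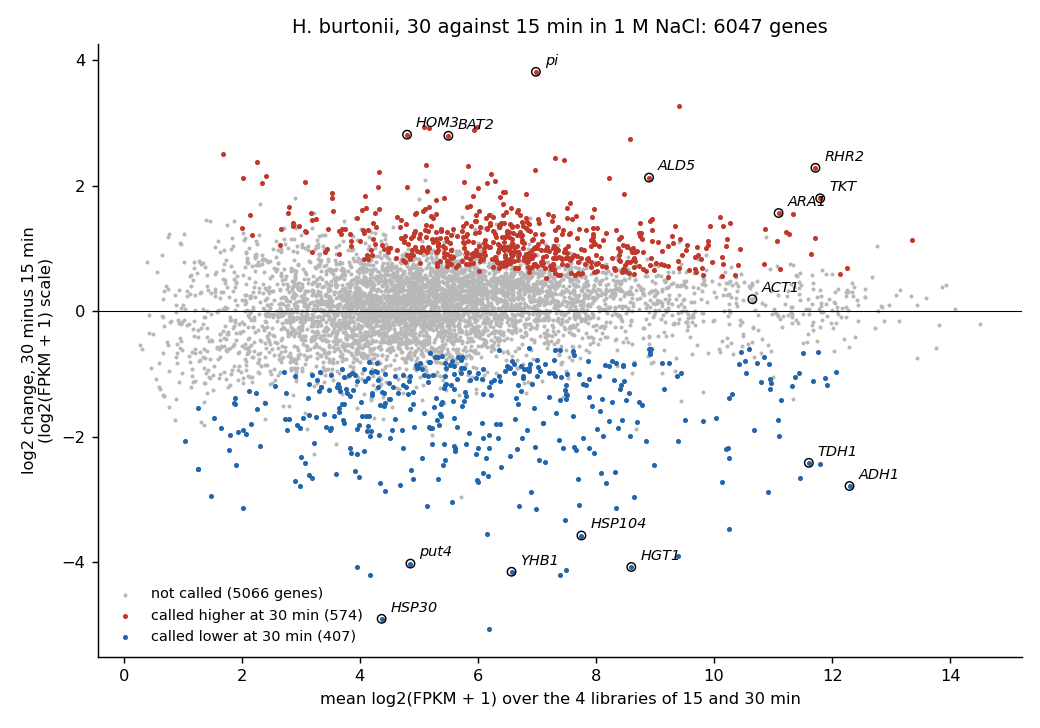
Each point is 1 of 6047 genes, with the mean log2(FPKM + 1) of the 4 libraries of 15 and 30 min on the x axis and the log2 change from 15 to 30 min on the y axis. The 574 genes called higher (red) reach 3.82 in pi, and the 407 called lower (blue) include very abundant genes such as ADH1 and TDH1, while ACT1 lies near 0.

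Genes were grouped into 37 lists by function. The lists with the largest shares of rises were mitochondrial ribosomal proteins, with 42 of 61 members, and amino acid biosynthesis, with 37 of 92. General stress genes (5 of 14), the pentose phosphate pathway (4 of 12), aminoacyl-tRNA synthetases (11 of 34), translation factors (10 of 38), sugar alcohol and aldose reductases (2 of 8), sodium, potassium and proton transport (4 of 16) and the proteasome (10 of 42) followed, against 9.49% of all genes. The lists with the largest shares of falls were sugar transport, with 10 of 19 members, chaperones and heat shock, with 13 of 30, glycerol synthesis and use, with 6 of 14, fermentation and acetate, with 6 of 16, and glycolysis and gluconeogenesis, with 7 of 21. Amino acid and peptide uptake followed, with 13 of 54. The background for falls was 6.73%. Vacuolar ATPase subunits (20 members) and actin, tubulin and septins (31) held 0 calls.

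**Figure D2:**
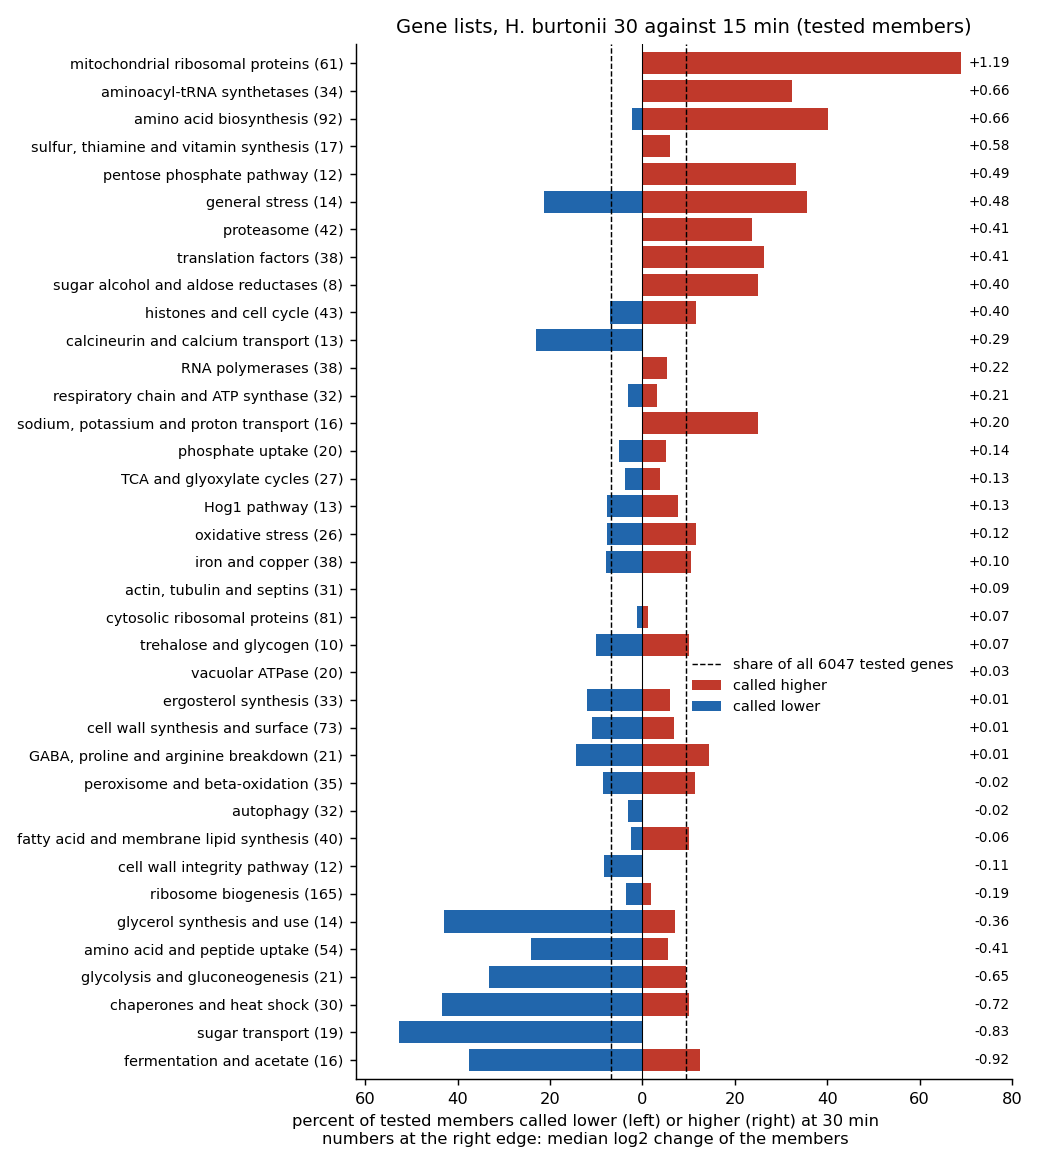
Each row is a gene list with its number of tested members, and the bars give the percent of members called higher (red, to the right) or lower (blue, to the left) at 30 min. Dashed lines mark the 9.49% and 6.73% of all genes, and the number at the right edge is the list's median log2 change, which runs from 1.19 for mitochondrial ribosomal proteins to -0.92 for fermentation and acetate.

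The mitochondrial ribosome makes the few proteins encoded in mitochondrial DNA, most of them subunits of the respiratory chain. All 61 of its measured proteins had a higher mean at 30 than at 15 min, with changes from 0.09 to 2.07 on the log2 scale. In 58 of them both 30 min libraries exceeded both 15 min libraries, against 36.7% of all genes. The median member stood at 49.1 and 35.8 FPKM at 0 min, 49.9 and 44.6 at 5 min, 46.6 and 51.2 at 15 min, and 121 and 120 at 30 min. The level was thus near that of the untreated culture for 15 min and far above it at 30 min.

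Among the large-subunit proteins, YML6 measured 56.7 and 64.98 FPKM at 15 min and 175 and 181 FPKM at 30 min, a log2 change of 1.53 (SE 0.18, adjusted p = 0.0017). The protein mrpl8 measured 53.1 and 61.1 FPKM at 15 min and 139 and 139 FPKM at 30 min, a change of 1.27 (SE 0.18, adjusted p = 0.00391). MRPL7 had 41.1 and 47.2 FPKM at 15 min and 109 and 115 FPKM at 30 min, a change of 1.33 (SE 0.19, adjusted p = 0.0047). In the small subunit NAM9 had 47.5 and 45.99 FPKM at 15 min and 168 and 144 FPKM at 30 min, a change of 1.71 (SE 0.21, adjusted p = 0.0022). In these 4 genes the 30 min libraries lay far above all 6 others. RTC6, a further protein of the large subunit that no list held, rose from 47.3 and 67.1 FPKM to 289 and 258 FPKM, a change of 2.26 (SE 0.23, adjusted p = 0.00119).

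The list's median change was 1.19, and it lay between 1.133 and 1.275 without any 1 library and at 1.04 with median-ratio scaling. The number of calls was less steady. It was 28 with median-ratio scaling, 28 without either 5 min library or 15 min replicate 1, 27 without 15 min replicate 2, 5 without 30 min replicate 1 and 10 without 30 min replicate 2. The respiratory chain and ATP synthase subunits, encoded in the nucleus, had 1 rise and 1 fall among 32, with a median change of 0.22. The risen gene was COX11, which helps copper enter cytochrome oxidase (77.3 and 63.02 FPKM to 152 and 139 FPKM, log2 change 1.05). The fallen one was STO1, an alternative oxidase that bypasses part of the chain (1534 and 2213 FPKM to 972 and 1091 FPKM, log2 change -0.84). The TCA and glyoxylate cycles had 1 rise and 1 fall among 27 members, and the fall was that of malate synthase MLS1 (20.02 and 21.2 FPKM to 7.51 and 7.93 FPKM). The call of MLS1 was lost without any 1 of the 4 libraries of 15 and 30 min and with a pseudocount of 10. COX11 lost its call when 15 min replicate 2 or a 30 min library was left out, and STO1 also without either 5 min library.

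Amino acid biosynthesis had 37 rises and 2 falls among 92 members, with a median change of 0.66. HOM3, the aspartokinase that opens the threonine and methionine pathway, had 14.4 and 12.7 FPKM at 0 min and 18.9 and 20.01 FPKM at 5 min. It measured 10.4 and 8.68 FPKM at 15 min and 80.2 and 66.1 FPKM at 30 min, the largest change of the list at 2.82 (SE 0.22, adjusted p = 0.000352). BAT2, the cytosolic branched-chain aminotransferase, had 17.4 and 14.7 FPKM at 0 min and 15.8 and 23.2 FPKM at 5 min, then 20.1 and 12.9 FPKM at 15 min and 114 and 122 FPKM at 30 min, a change of 2.8 (SE 0.28, adjusted p = 0.00107). Both genes stayed low for 15 min and stood apart at 30 min only.

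Arginine synthesis gave ARG1, argininosuccinate synthase, at 21.6 and 27.5 FPKM at 15 min and 166 and 94.98 FPKM at 30 min, a log2 change of 2.32 (SE 0.34, adjusted p = 0.00483). In lysine synthesis the homoaconitase LYS4 rose from 41.4 and 33.5 FPKM to 145 and 175 FPKM, a change of 2.07 (SE 0.20, adjusted p = 0.000921). The copy of LYS1 at chromosome 4, 409559 to 410682, plus strand, encoding the last enzyme of lysine synthesis, rose from 30.5 and 32.4 FPKM to 122 and 129 FPKM, a change of 1.96 (SE 0.17, adjusted p = 0.00064). All 3 had both 30 min libraries above every earlier library. Other rises covered tryptophan (TRP2, TRP3, trp4, TRP5), histidine (HIS1, HIS3, HIS4, HIS5, HIS7), branched-chain amino acids (ILV2, ILV3, ILV5, ILV6, LEU4) and methionine (MET6, MET13), with log2 changes between 0.75 and 1.91. GCN4, the transcription factor that drives amino acid genes in S. cerevisiae, rose from 1714 and 1249 FPKM to 3059 and 3279.8 FPKM, a change of 1.11 (SE 0.20, adjusted p = 0.0116). GCN4 and these pathway members were picked from the list after their values were seen. The 2 members that fell were LEU1, of leucine synthesis (log2 change -1.02), and the alanine aminotransferase ALT1 (-1.03). Without 30 min replicate 1 the list had 15 rises and 0 falls, without 30 min replicate 2 it had 26 and 0, and in the other alternatives from 29 to 38 rises.

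Aminoacyl-tRNA synthetases load tRNAs with amino acids. Of 34 tested, 11 rose and 0 fell, with a median change of 0.66, and 32 had a change above 0. CDC60, the cytosolic leucine enzyme (copy TBIG003563), measured 1046 and 1029.6 FPKM at 0 min and 898 and 826 FPKM at 5 min, then 481 and 437 FPKM at 15 min and 1119 and 936 FPKM at 30 min. That is a change of 1.16 (SE 0.16, adjusted p = 0.00367) which brought it near its 0 min level. The mitochondrial serine enzyme DIA4 rose from 17.7 and 15.98 FPKM to 56.2 and 46.8 FPKM (log2 change 1.56), the mitochondrial methionine enzyme MSM1 from 26.7 and 27.03 FPKM to 61.9 and 52.1 FPKM (1.05) and the cytosolic threonine enzyme THS1 from 58.2 and 58.04 FPKM to 126 and 113 FPKM (1.02). DIA4 lost its call without 30 min replicate 1, and MSM1 and THS1 without 15 min replicate 2 or either 30 min library. The list held 4 rises with median-ratio scaling, 5 without either 5 min library, 7 without 15 min replicate 1, 3 without 15 min replicate 2, 1 without 30 min replicate 1 and 4 without 30 min replicate 2.

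Among translation factors 10 of 38 rose and 0 fell. PRT1, a core subunit of initiation factor eIF3, measured 91.99 and 92.3 FPKM at 15 min and 271 and 234 FPKM at 30 min, a log2 change of 1.44 (SE 0.18, adjusted p = 0.00251). TIF35, another eIF3 subunit, rose from 59.2 and 55.1 FPKM to 132 and 129.6 FPKM (1.18), the release factor SUP35 from 70.9 and 68.1 FPKM to 184 and 144 FPKM (1.22) and the eIF2B subunit GCD7 from 66.6 and 57.6 FPKM to 132 and 122 FPKM (1.02). PRT1 kept its call without any 1 library. TIF35 lost it without 30 min replicate 1, SUP35 without 15 min replicate 2 or 30 min replicate 1, and GCD7 without 15 min replicate 2 or either 30 min library. The list had 5 rises with either scaling, without either 5 min library or without 30 min replicate 2, 6 without 15 min replicate 1, 4 without 15 min replicate 2 and 1 without 30 min replicate 1.

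Cytosolic ribosomal proteins behaved unlike their mitochondrial counterparts in count, with 1 rise and 1 fall among 81 and a median change of 0.07. The fall was that of RPL7 (1548 and 2498 FPKM to 767 and 748 FPKM, log2 change -1.38) and the rise that of RPL21A (253 and 312 FPKM to 694 and 608 FPKM, 1.21). RPL7 lost its call without either 30 min library, and RPL21A without 15 min replicate 1 or either 30 min library. Ribosome biogenesis factors lay above their 0 min level at 30 min by a median of 0.86, against 0.56 over all genes. From 15 to 30 min they had 3 rises and 6 falls among 165 and a median of -0.19. TIF6, which keeps the large ribosomal subunit from joining too early, was an exception with 131 and 153 FPKM at 15 min and 614 and 630.3 FPKM at 30 min, a change of 2.13 (SE 0.24, adjusted p = 0.00164). NOP13, a nucleolar RNA-binding protein, fell from 54.95 and 92.3 FPKM to 20.1 and 24.4 FPKM (-1.64), the helicase DBP8 from 40.4 and 46.6 FPKM to 16.6 and 16.8 FPKM (-1.33) and the ATPase RIX7 from 103 and 116 FPKM to 55.6 and 43.8 FPKM (-1.13). NOP13 lost its call without 30 min replicate 1, RIX7 without 30 min replicate 2, and DBP8 without 15 min replicate 2 or either 30 min library. The list's median turned to 0.145 without 15 min replicate 2. RNA polymerase subunits had 2 rises among 38, those of RPC25 (1.3) and RPB3 (0.58), and each of these calls was lost without any 1 of the 6 libraries of 5, 15 and 30 min.

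**Figure D3:**
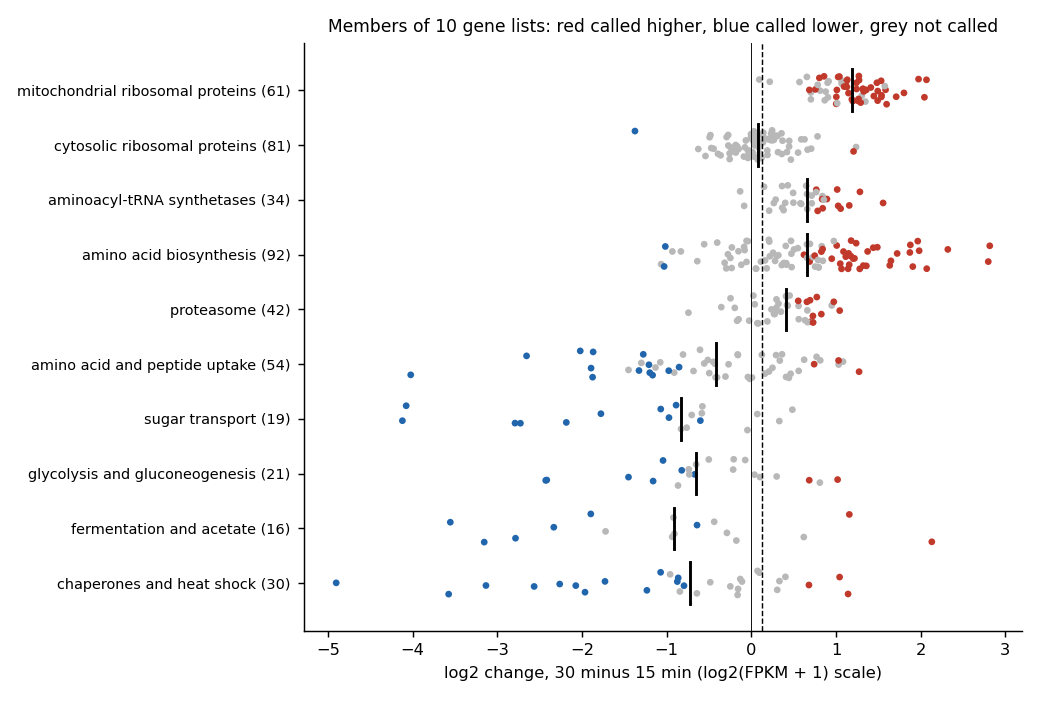
Each point is a member of 1 of 10 gene lists, placed by its log2 change from 15 to 30 min, with a black bar at the list's median and a dashed line at the median of all genes, 0.13. Mitochondrial ribosomal proteins lie to the right of the dashed line except for 1 member at 0.09, cytosolic ones are centred near it, and sugar transporters lie mostly to the left.

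Of 54 permeases for amino acids, peptides and other nitrogen compounds 13 fell and 3 rose. The largest fall was that of put4, a proline permease, with 81.3 and 165 FPKM at 15 min and 8.66 and 4.33 FPKM at 30 min, a log2 change of -4.02 (SE 0.42, adjusted p = 0.0012). The oligopeptide transporter gene OPT2 (TBIG004746) went from 32.4 and 14.7 FPKM to 3.34 and 2.05 FPKM, a change of -2.66 (SE 0.36, adjusted p = 0.00351). Its level had been 254 and 314 FPKM before the salt, so it dropped over the whole course. The dipeptide and tripeptide transporter PTR2 fell from 176 and 266 FPKM to 64.5 and 42.7 FPKM, a change of -2.02 (SE 0.27, adjusted p = 0.00318), and the allantoate permease DAL5 from 31.5 and 26.2 FPKM to 6.15 and 8.19 FPKM, a change of -1.88 (SE 0.25, adjusted p = 0.00307). For PTR2, OPT2 and DAL5 the 30 min libraries were the lowest of the course. The 3 rises, picked out after their values were seen, were both copies of the general permease GAP1 (1.03 and 0.74) and MUP3, named after a low-affinity methionine permease (1.27). These rises were gone, with 0 called, under both other scalings and without 15 min replicate 2 or either 30 min library or either 5 min library. The falls were then 14 and 13, 6, 5 and 5, and 8 and 8, in the same order. GABA, proline and arginine breakdown had 3 rises and 3 falls among 21, or 14.3% each, against 9.49 and 6.73% of all genes. The permease put4 was counted in that list too. In it PUT2, the second enzyme of proline breakdown, fell from 180.4 and 183 FPKM to 90.4 and 86.2 FPKM, a change of -1.03 (SE 0.16, adjusted p = 0.00571).

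Sugar transport showed 10 falls and 0 rises among 19 members. HGT1 (chromosome 8, 886434 to 888082, plus strand), a high-affinity glucose transporter, stood at 4479.8 and 5261 FPKM at 0 min and 1069 and 1000.3 FPKM at 5 min, then 1413 and 1790.0 FPKM at 15 min and 83.1 and 105 FPKM at 30 min. This is a log2 change of -4.08 (SE 0.19, adjusted p = 5.68e-05). The symporter named araE at chromosome 3, 1364289 to 1365947, plus strand measured 566 and 1002 FPKM at 15 min and 45.2 and 39.6 FPKM at 30 min, a change of -4.12 (SE 0.33, adjusted p = 0.000444), and a second araE copy (TBIG003210) fell from 266 and 243 FPKM to 73.2 and 73.7 FPKM, a change of -1.78 (SE 0.15, adjusted p = 0.000614). HXT7, a high-affinity hexose transporter, measured 10617 and 8777 FPKM at 5 min, then 2379 and 3505 FPKM at 15 min and 452 and 418 FPKM at 30 min, a change of -2.73 (SE 0.23, adjusted p = 0.000487). For all 4 the 30 min libraries were the lowest of the 8. The list held 7 falls without either 5 min library and 6 without 15 min replicate 2 or either 30 min library. How the authors' tools divided reads among similar transporter copies is not given, so single copies are uncertain. MIG1, a repressor active when glucose is plentiful, peaked early with 902 and 813 FPKM at 5 min. It then went from 204 and 457 FPKM to 27.6 and 42.9 FPKM, a change of -3.11 (SE 0.38, adjusted p = 0.00227), and ended below its 0 min level of 92.8 and 121 FPKM.

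Glycolysis and gluconeogenesis had 7 falls and 2 rises among 21. TDH1 (TBIG004709) and the neighbouring GPD (TBIG004708), both annotated as glyceraldehyde-3-phosphate dehydrogenase, fell from 8208 and 6310.1 FPKM to 1514 and 1198 FPKM and from 9622 and 7127 FPKM to 1484 and 1590.4 FPKM. Their changes were -2.42 (SE 0.20, adjusted p = 0.000461) and -2.43 (SE 0.21, adjusted p = 0.000614). Another gene of that annotation, GPD TBIG002932 on chromosome 3, measured 28735 and 21953 FPKM at 15 min and 20492 and 23030.0 FPKM at 30 min, a change of -0.21 (SE 0.21, adjusted p = 0.544), and was the most abundant of the 3 at both times. PFK1, the alpha subunit of phosphofructokinase, fell from 654 and 745 FPKM to 272 and 239 FPKM, a change of -1.45 (SE 0.19, adjusted p = 0.00298), and enolase ENO2 from 4035 and 3601 FPKM to 1772 and 1928 FPKM, a change of -1.04 (SE 0.15, adjusted p = 0.00489). The 2 rises, named after their values were seen, were of the enolase copy ENO1 (1.02) and of FBP1 (0.68), the phosphatase of gluconeogenesis. The list held 4 falls without either 5 min library, 15 min replicate 1 or either 30 min library.

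Fermentation and acetate genes had 6 falls and 2 rises among 16. The alcohol dehydrogenase ADH1 at chromosome 4, 1046037 to 1047083, plus strand was among the most abundant transcripts before the salt, with 47505 and 42565 FPKM at 0 min. It measured 14606 and 11910.4 FPKM at 15 min and 1808 and 2019.8 FPKM at 30 min, a log2 change of -2.79 (SE 0.18, adjusted p = 0.000171). A second ADH1 copy (TBIG002724) went from 2860.4 and 2645 FPKM to 531 and 559 FPKM, a change of -2.33 (SE 0.17, adjusted p = 0.000297), and the mitochondrial ADH3 from 285 and 209.9 FPKM to 20.6 and 19.1 FPKM, a change of -3.56 (SE 0.19, adjusted p = 6.13e-05). ACS1, which turns acetate into acetyl-CoA, fell from 390.2 and 361 FPKM to 43.8 and 38.8 FPKM, a change of -3.16 (SE 0.21, adjusted p = 0.000171). YAT1, a carnitine acetyltransferase that moves acetyl groups, fell from 68.5 and 69.4 FPKM to 18.01 and 18.3 FPKM, a change of -1.87 (SE 0.17, adjusted p = 0.000795). Against this, the mitochondrial aldehyde dehydrogenase ALD5 went from 250.4 and 206 FPKM to 896 and 1108 FPKM, a change of 2.13 (SE 0.21, adjusted p = 0.001). ALD5 had read 24.6 and 18.4 FPKM before the salt, so its rise had begun by 15 min. The other rise, seen afterwards, was that of the pyruvate decarboxylase PDC1 (1.16).

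Chaperones and heat shock proteins fell more often than they rose, with 13 falls and 3 rises among 30 and a median change of -0.72. HSP30, a membrane heat shock protein, had the largest fall of any named gene that passed the level rule. It stood at 549 and 610.3 FPKM at 0 min and 523 and 465 FPKM at 5 min, then at 115 and 109 FPKM at 15 min and 2.56 and 3.001 FPKM at 30 min, a change of -4.9 (SE 0.17, adjusted p = 2.05e-05). HSP104, which pulls apart aggregated proteins, peaked with 1371 and 1464 FPKM at 5 min and then measured 539.8 and 1024 FPKM at 15 min and 65.5 and 57.6 FPKM at 30 min, a change of -3.58 (SE 0.39, adjusted p = 0.00136). The 2 libraries of 15 min differed for HSP104, but both stood above every 30 min value. TMA10, a ribosome-associated stress protein, went from 849 and 1084 FPKM to 123 and 95.2 FPKM, a change of -3.14 (SE 0.19, adjusted p = 0.000118). HSP78 (TBIG002281), the mitochondrial counterpart of HSP104, fell from 580.2 and 517 FPKM to 109 and 117 FPKM, a change of -2.26 (SE 0.16, adjusted p = 0.0002). The Hsp70 cochaperone SIS1 fell from 1203 and 1464 FPKM to 373 and 428 FPKM, a change of -1.73 (SE 0.16, adjusted p = 0.000893). HSP12, a small membrane-protecting stress protein, did not follow, with 7451 and 8566 FPKM at 15 min and 6213 and 8251 FPKM at 30 min and a change of -0.16 (SE 0.18, adjusted p = 0.618). The rises were those of HSP31 (1.14), the mitochondrial mge1 (1.04) and the prolyl isomerase CPR3 (0.68), named here after their values were seen. Between 10 and 15 members fell in every alternative. The rises were 1 with median-ratio scaling, with the 4 libraries of 15 and 30 min alone or without either 5 min library or 15 min replicate 2, and 0 without either 30 min library.

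Of 14 genes of glycerol synthesis and use 1 rose, a copy of RHR2, and 6 fell. RHR2, the phosphatase that releases glycerol from glycerol phosphate, is present in more than 1 copy. The copy at chromosome 5, 718819 to 719604, minus strand measured 33.2 and 34.8 FPKM at 0 min and 37.4 and 36.3 FPKM at 5 min, then 1736 and 1337 FPKM at 15 min and 7125 and 7753 FPKM at 30 min, a log2 change of 2.29 (SE 0.17, adjusted p = 0.000338). It stayed near its 0 min level for 5 min and then climbed in both later steps. The other copy, TBIG004428, had reached 1972 and 1972 FPKM at 5 min and then stayed, with 1912 and 1685 FPKM at 15 min and 2035 and 1827 FPKM at 30 min, a change of 0.10 (SE 0.15, adjusted p = 0.707). The NAD-dependent glycerol-3-phosphate dehydrogenases, the step before, did not pass the test. GPD TBIG000228 measured 7312 and 5188 FPKM at 15 min and 4110.4 and 5175 FPKM at 30 min, a change of -0.42 (SE 0.21, adjusted p = 0.219), and GPD TBIG005904 910.2 and 752 FPKM at 15 min and 636 and 712 FPKM at 30 min, a change of -0.30 (SE 0.20, adjusted p = 0.355).

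The 6 falls were those of all 5 copies of STL1, a glycerol and proton symporter in S. cerevisiae, and of dihydroxyacetone kinase dak1. The 3 STL1 copies side by side on chromosome 3 showed the larger falls. STL1 at chromosome 3, 516940 to 518556, plus strand went from 75.9 and 63.8 FPKM to 9.03 and 13.7 FPKM (log2 change -2.54 (SE 0.25, adjusted p = 0.001)). STL1 at chromosome 3, 519093 to 520730, plus strand went from 131 and 136 FPKM to 15.3 and 15.5 FPKM (-3.04 (SE 0.30, adjusted p = 0.001)). STL1 at chromosome 3, 521415 to 522695, plus strand went from 34.2 and 94.8 FPKM to 5.44 and 8.81 FPKM (-2.87 (SE 0.58, adjusted p = 0.0167)). These 3 had started from unlike levels, with 242 and 258, 41.3 and 38.6, and 5.75 and 17.2 FPKM at 0 min. The 2 copies on chromosome 7 were the more abundant, and STL1 TBIG005317 fell from 2008 and 1803 FPKM to 1259.6 and 1249 FPKM (-0.60) and STL1 TBIG005322 from 469 and 396 FPKM to 247 and 238 FPKM (-0.83). The kinase dak1 fell from 31.9 and 29.4 FPKM to 5.79 and 5.47 FPKM, a change of -2.26 (SE 0.27, adjusted p = 0.00217). STL1 TBIG005317 lost its call without any 1 of the 6 libraries of 5, 15 and 30 min, TBIG005322 when 15 min replicate 1 or a 30 min library was left out, and TBIG002607 without 15 min replicate 2 or either 30 min library. The list held 5 falls without either 5 min library, 4 without either 15 min library and 3 without either 30 min library. Read division among the copies is not given, so the single copies are uncertain.

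The glycerol dehydrogenases, glycerol kinase and the mitochondrial glycerol-3-phosphate dehydrogenase did not pass the test. The glycerol dehydrogenases GCY1 measured 2556 and 1463 FPKM at 15 min and 2828 and 3725 FPKM at 30 min for TBIG001529 (change 0.75) and 3888 and 5448 FPKM at 15 min and 6414 and 5665 FPKM at 30 min for TBIG001530 (0.39). Glycerol kinase GUT1 had 1165 and 926 FPKM at 15 min and 1397 and 1426 FPKM at 30 min (0.44) and the mitochondrial gut2 459.7 and 610.3 FPKM at 15 min and 994 and 811 FPKM at 30 min (0.76, adjusted p = 0.0591). All 4 were already well above their 0 min levels by 15 min.

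The 2 copies of ARA1, an aldose reductase family enzyme, lie next to each other on chromosome 3 and rose. ARA1 TBIG002950 had 24.9 and 18.8 FPKM at 0 min and 50.6 and 52.9 FPKM at 5 min, then 1286 and 1251 FPKM at 15 min and 3482 and 4053 FPKM at 30 min, a log2 change of 1.57 (SE 0.18, adjusted p = 0.00186). ARA1 TBIG002949 rose from 193 and 150.2 FPKM to 318 and 411 FPKM, a change of 1.08 (SE 0.21, adjusted p = 0.0158), and lost its call without 15 min replicate 2 or either 30 min library. Both lay above all earlier libraries. The arabinitol dehydrogenase ARDH measured 3957 and 2817 FPKM at 15 min and 4506 and 5634 FPKM at 30 min (0.59, adjusted p = 0.116) and the sugar reductase SOU2 764 and 512 FPKM at 15 min and 829 and 919.6 FPKM at 30 min (0.48, adjusted p = 0.27), neither of them called.

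The pentose phosphate pathway, a source of NADPH and pentoses, had 4 rises and 0 falls among 12. Transketolase TKT at chromosome 6, 687449 to 689485, plus strand measured 75.4 and 57.6 FPKM at 0 min and 81.2 and 82.5 FPKM at 5 min, then 2321 and 1565 FPKM at 15 min and 6289 and 7014 FPKM at 30 min, a log2 change of 1.8 (SE 0.23, adjusted p = 0.00263). The other TKT copy, TBIG003750, stayed between 557 and 666 FPKM in all 8 libraries, with a change of -0.06 (SE 0.17, adjusted p = 0.856). The pathway's SOL3, a phosphogluconolactonase, rose from 234 and 212 FPKM to 501 and 490.2 FPKM, a change of 1.15 (SE 0.16, adjusted p = 0.00366), and the epimerase RPE1 from 657 and 579 FPKM to 1239 and 1077 FPKM, a change of 0.90 (SE 0.16, adjusted p = 0.00957). The ribokinase RBK1 rose from 93.7 and 73.8 FPKM to 151 and 169 FPKM (0.93). Transaldolase tal1 measured 3886 and 4858 FPKM at 15 min and 5866 and 5131 FPKM at 30 min and was not called (0.34). RPE1 lost its call without 30 min replicate 1, and RBK1 under both other scalings and without 15 min replicate 2 or either 30 min library. Without 30 min replicate 1 the list had 2 rises.

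Ion transport had 4 rises and 0 falls among 16. PMA1, the proton pump that energizes the plasma membrane, measured 462 and 373 FPKM at 15 min and 970.3 and 751 FPKM at 30 min, a log2 change of 1.04 (SE 0.20, adjusted p = 0.0132). The sodium and proton antiporter NHA1 rose from 40.01 and 31.6 FPKM to 82.8 and 72.03 FPKM, a change of 1.1 (SE 0.21, adjusted p = 0.0149). The sodium ATPase gene ENA5 at chromosome 2, 744457 to 745890, minus strand had 38.1 and 38.6 FPKM at 0 min and 99.5 and 80.8 FPKM at 5 min, then 247 and 209 FPKM at 15 min and 641 and 417 FPKM at 30 min, a change of 1.18 (SE 0.24, adjusted p = 0.0162). Its gene model is much shorter than those of the other 2 ENA5 genes. ENA5 TBIG001727, a few genes before it, measured 95.04 and 81.96 FPKM at 15 min and 188 and 135 FPKM at 30 min (0.85, adjusted p = 0.0516), and ENA5 TBIG002789 431 and 535 FPKM at 15 min and 555 and 493 FPKM at 30 min (0.12, adjusted p = 0.821). The largest part of the increase of TBIG002789 had come before 15 min, from 7.57 and 14.9 FPKM at 0 min. PPZ1, a phosphatase acting on salt tolerance, rose from 68.5 and 64.2 FPKM to 113 and 107 FPKM (0.72), and the potassium transporter HAK1, with a peak of 149 and 100.1 FPKM at 5 min, measured 38.6 and 42.5 FPKM at 15 min and 22.2 and 20.2 FPKM at 30 min and was not called (-0.90, adjusted p = 0.0594). PMA1 and ENA5 TBIG001730 lost their calls without 15 min replicate 2 or 30 min replicate 1, and NHA1 also without 30 min replicate 2. PPZ1 lost its call under both other scalings and without any 1 of the 6 libraries of 5, 15 and 30 min.

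The Hog1 pathway had 1 rise and 1 fall among 13, or 7.69% each, close to the 9.49 and 6.73% of all genes. HOG1 itself measured 252 and 307 FPKM at 15 min and 338 and 370.3 FPKM at 30 min (0.35), its kinase PBS2 6.19 and 14.6 FPKM at 15 min and 16.5 and 13.1 FPKM at 30 min (0.57) and SSK2 17.5 and 16.5 FPKM at 15 min and 33.6 and 23.2 FPKM at 30 min (0.68), none of them called. MSN4, a transcription factor of the general stress response, fell from 18.95 and 24.9 FPKM to 6.58 and 9.498 FPKM, a log2 change of -1.35 (SE 0.27, adjusted p = 0.0156). The phosphatase ptc2 rose from 46.6 and 55.9 FPKM to 142 and 86.5 FPKM, a change of 1.1 (SE 0.29, adjusted p = 0.0407). The call of MSN4 needed 15 min replicate 2 and 30 min replicate 1, and ptc2 lost its own under both other scalings and without any 1 of 5 libraries, those of 5 and 15 min and 30 min replicate 1.

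Of the calcineurin and calcium transport genes 3 of 13 fell, RCN1, PMC1 and cmk1, and the list's median change was 0.29 against 0.13 for all genes. RCN1, an inhibitor and target of calcineurin, had gone from 98.8 and 137 FPKM at 0 min to 788 and 814 FPKM at 5 min. It then measured 318 and 365 FPKM at 15 min and 159 and 161 FPKM at 30 min, a change of -1.09 (SE 0.19, adjusted p = 0.00975). PMC1, the vacuolar calcium pump, went from 14.8 and 17.96 FPKM at 0 min and 131 and 123 FPKM at 5 min to 147 and 215 FPKM at 15 min and 57.3 and 49.7 FPKM at 30 min, a change of -1.72 (SE 0.23, adjusted p = 0.00327). The calmodulin-dependent kinase cmk1 fell from 769 and 699.6 FPKM to 249 and 271 FPKM, a change of -1.5 (SE 0.17, adjusted p = 0.00155). RCN1 and PMC1 at 30 min lay between their 0 and their 15 min values, and cmk1 lay below its 0 min values. The other 10 members did not pass the test. The regulatory subunit of calcineurin, CNB1, measured 117 and 114 FPKM at 15 min and 166 and 147 FPKM at 30 min (0.43, adjusted p = 0.107), and the catalytic subunit CNA1 126 and 233 FPKM at 15 min and 192 and 124 FPKM at 30 min (-0.15), with replicates too far apart to read a direction. RCN1 lost its call without 15 min replicate 2 or either 30 min library.

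**Figure D4:**
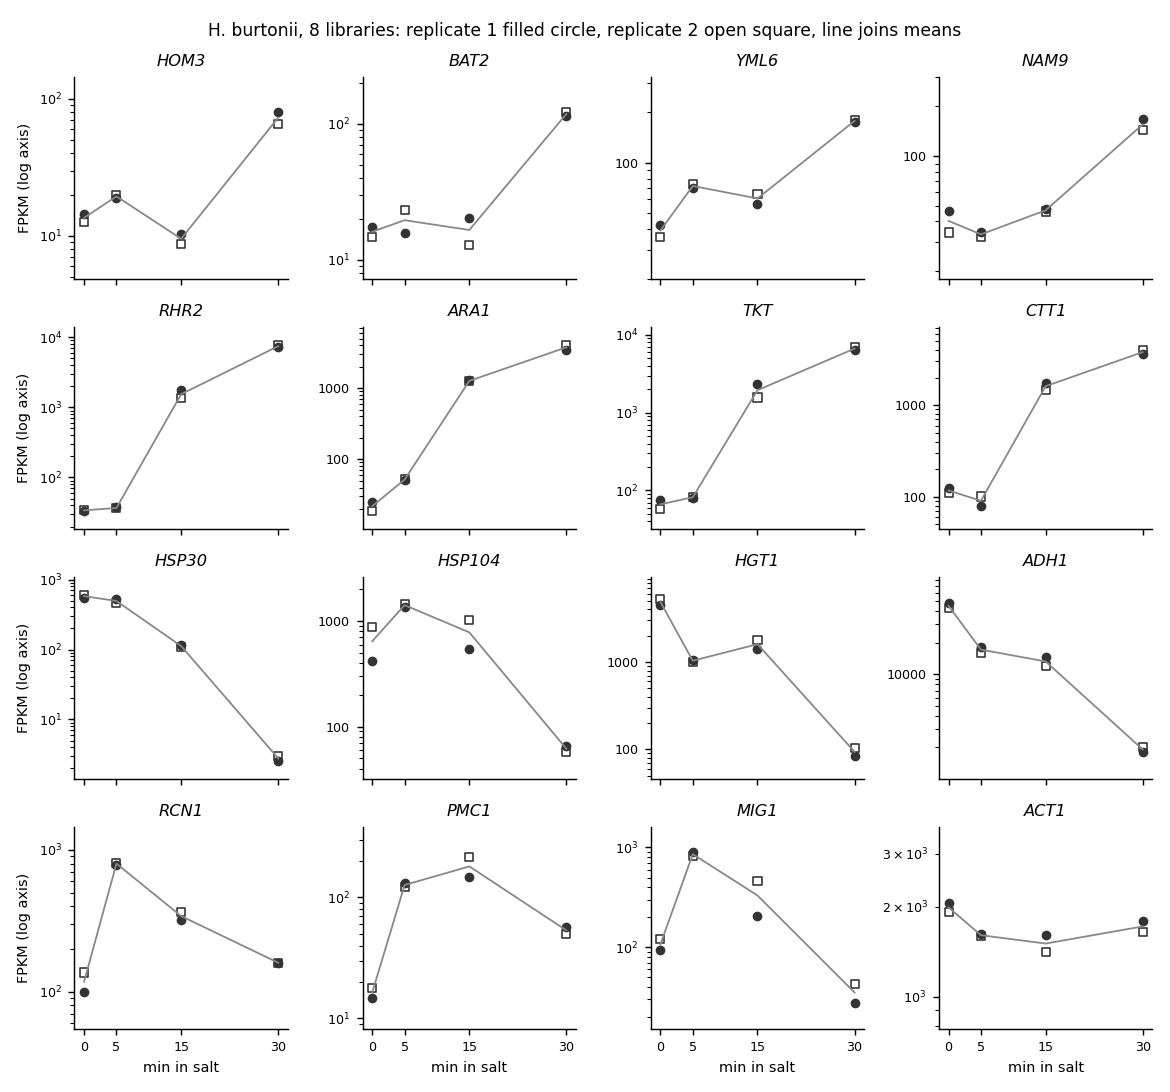
FPKM of 16 genes in the 8 libraries over 0, 5, 15 and 30 min in salt, on a log axis for each gene, with replicate 1 as a filled circle, replicate 2 as an open square and a line through the means. HOM3, BAT2, YML6 and NAM9 climb after 15 min, RHR2, ARA1, TKT and CTT1 climb from 5 min on, HSP30, HSP104, HGT1 and ADH1 end at their lowest, and RCN1, PMC1 and MIG1 fall from an earlier peak, with ACT1 between 1408 and 2056 FPKM throughout.

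Oxidative stress genes had 3 rises and 2 falls among 26, or 11.5 and 7.69%, close to the 9.49 and 6.73% of all genes. CTT1, the cytosolic catalase, had 126 and 109 FPKM at 0 min and 80.3 and 101 FPKM at 5 min, then 1763 and 1463 FPKM at 15 min and 3621 and 3968 FPKM at 30 min, a log2 change of 1.24 (SE 0.18, adjusted p = 0.00506). The mitochondrial peroxiredoxin PRX1 rose from 339.8 and 256 FPKM to 859.6 and 784 FPKM, a change of 1.47 (SE 0.19, adjusted p = 0.00298), and the glutathione transferase GTT1 from 115 and 122 FPKM to 309 and 379.8 FPKM, a change of 1.52 (SE 0.20, adjusted p = 0.00298). The flavohemoprotein YHB1, which detoxifies nitric oxide, moved the other way, from 2051 and 1770.4 FPKM at 0 min to 403 and 396 FPKM at 15 min and 23.4 and 19.8 FPKM at 30 min, a change of -4.15 (SE 0.16, adjusted p = 3.16e-05). Superoxide dismutase SOD1 measured 6174 and 3739.7 FPKM at 15 min and 8164 and 12025 FPKM at 30 min (1.04, adjusted p = 0.0507) and the mitochondrial SOD2 TBIG002547 2455 and 1647 FPKM at 15 min and 3032 and 3727 FPKM at 30 min (0.74), neither called. A second gene named SOD2, TBIG001780, was far lower and varied between replicates (0.05, SE 0.69).

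General stress genes had 5 rises and 3 falls among 14. Besides ALD5, the GABA shunt gave UGA1, the aminotransferase, at 84.01 and 83.1 FPKM at 15 min and 266 and 229.9 FPKM at 30 min (log2 change 1.55 (SE 0.22, adjusted p = 0.00407)). UGA2, the succinate-semialdehyde dehydrogenase (TBIG002647), rose from 74.7 and 56.1 FPKM to 167 and 182 FPKM (1.42 (SE 0.20, adjusted p = 0.00391)). RGI1, a gene of respiratory growth, had started at 3571 and 3232 FPKM at 0 min and fell from 626 and 506 FPKM to 51.1 and 59.9 FPKM (-3.32 (SE 0.17, adjusted p = 6.13e-05)). WSC4, a cell wall stress sensor, fell from 98.8 and 101 FPKM to 66.5 and 62.98 FPKM (-0.62). UGA1 lost its call without 30 min replicate 1, and WSC4 without any 1 of the 6 libraries of 5, 15 and 30 min.

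Trehalose synthase TPS1 fell from 342 and 627 FPKM to 144 and 163 FPKM, a log2 change of -1.59 (SE 0.34, adjusted p = 0.0198), after a peak of 699 and 777 FPKM at 5 min. The trehalose phosphatase TPS2 measured 219 and 288 FPKM at 15 min and 200.2 and 172 FPKM at 30 min (-0.43) and glycogen phosphorylase GPH1 70.2 and 93.7 FPKM at 15 min and 56.1 and 55.3 FPKM at 30 min (-0.53), neither called. Glycogen debranching enzyme GDB1 rose from 128 and 104 FPKM to 204 and 181 FPKM (0.73). TPS1 lost its call when 15 min replicate 2 or a 30 min library was left out, and GDB1 also under both other scalings and without either 5 min library. Trehalose and glycogen thus had 1 rise and 1 fall among 10.

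Ergosterol synthesis, which makes the main membrane sterol, had 4 falls and 2 rises among 33. These were 12.1 and 6.06% of the list, against 6.73 and 9.49% of all genes. Lanosterol demethylase ERG11 had 814 and 678 FPKM at 0 min and 127 and 118 FPKM at 5 min, then 64.4 and 40.3 FPKM at 15 min and 6.705 and 6.95 FPKM at 30 min, a log2 change of -2.73 (SE 0.24, adjusted p = 0.00066). The methylsterol oxidase ERG25 fell from 446 and 613 FPKM to 73.1 and 90.03 FPKM, a change of -2.67 (SE 0.20, adjusted p = 0.000338). Both are oxygen-requiring steps. The gene sre1, named after a sterol-regulated transcription factor of fission yeast, fell from 175 and 263 FPKM to 45.1 and 46.97 FPKM, a change of -2.19 (SE 0.21, adjusted p = 0.000893). ERG4, the last reductase, fell from 145 and 210.1 FPKM to 88.6 and 98.6 FPKM (-0.89), a call lost without either 5 min library, 15 min replicate 2 or either 30 min library.

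Lipid genes had 4 rises and 1 fall among 40. CDS1, which makes the precursor of many phospholipids, rose from 127 and 88.2 FPKM to 229 and 243 FPKM (1.15 (SE 0.22, adjusted p = 0.0139)), the decarboxylase PSD1 from 4.103 and 4.93 FPKM to 14.2 and 10.5 FPKM (1.26) and the elongase SUR4 from 295 and 285 FPKM to 475 and 526 FPKM (0.78). Inositol phosphate synthase INO1 fell from 15.6 and 10.9 FPKM to 5.05 and 3.87 FPKM (-1.38). CDS1 lost its call without 15 min replicate 2 or either 30 min library, INO1 when 15 min replicate 1 or a 30 min library was left out, and PSD1 and SUR4 without any 1 of the 6 libraries of 5, 15 and 30 min. SUR4 also lost it under both other scalings. Among peroxisomal and beta-oxidation genes 4 of 35 rose and 3 fell, or 11.4 and 8.57%, close to the shares of all genes. The largest change of that list was a fall, that of YAT1 (-1.87), described with the acetate genes, which kept its call without any 1 library. FAA2, a fatty acid activating enzyme, rose from 49.03 and 51.1 FPKM to 109 and 97.5 FPKM (1.03). The import receptor PEX7 rose from 44.5 and 32.1 FPKM to 79.2 and 87.5 FPKM (1.12) and the aminotransferase AGX1 from 309 and 283 FPKM to 559 and 487 FPKM (0.82). FAA2 lost its call without either 30 min library, PEX7 and AGX1 also without 15 min replicate 2, and AGX1 with median-ratio scaling.

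Cell wall and surface genes had 5 rises and 8 falls among 73. The 3 copies of PGA12 named by the rule, annotated as phosphomutase-like, moved in opposite directions. PGA12 TBIG003757 had 4.78 and 2.73 FPKM at 0 min and 3.68 and 3.47 FPKM at 5 min, then 169 and 126 FPKM at 15 min and 829 and 1171 FPKM at 30 min, a log2 change of 2.74 (SE 0.29, adjusted p = 0.0012). Its neighbours in name, PGA12 TBIG002342 and TBIG002343, which lie side by side, fell from 98.5 and 106 FPKM to 9.54 and 12.6 FPKM (-3.11 (SE 0.19, adjusted p = 0.000118)) and from 219 and 178 FPKM to 31.04 and 38.4 FPKM (-2.48 (SE 0.23, adjusted p = 0.000873)). SCW11, a glucanase of daughter-cell separation, fell from 201 and 222 FPKM to 71.8 and 71.2 FPKM (-1.55 (SE 0.15, adjusted p = 0.000996)). The cell wall integrity pathway had 1 fall and 0 rises among 12.

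Phosphate uptake had 1 rise and 1 fall among 20, or 5.0% each, against 9.49 and 6.73% of all genes. The transporter PHO84 had dropped from 464 and 490.2 FPKM at 0 min to 15.9 and 13.3 FPKM at 5 min, and it rose from 29.5 and 57.5 FPKM to 134 and 102 FPKM, a log2 change of 1.48 (SE 0.31, adjusted p = 0.0185), to stay below its first level. The acid phosphatase PHO11 fell from 209.7 and 151 FPKM to 21.96 and 35.3 FPKM, a change of -2.63 (SE 0.29, adjusted p = 0.00142). Among 38 genes of metal ions and haem 4 rose and 3 fell, or 10.5 and 7.89%, close to the 9.49 and 6.73% of all genes. The zinc transporter ZRT1 rose from 38.01 and 35.3 FPKM to 94.1 and 108 FPKM (1.44 (SE 0.20, adjusted p = 0.00411)), and in haem synthesis HEM3 rose from 24.9 and 32.7 FPKM to 64.6 and 55.5 FPKM (1.04) while HEM13, an oxygen-requiring step, fell from 201 and 169 FPKM to 89.6 and 101 FPKM (-0.95). Haem oxygenase HMX1 fell from 95.5 and 197 FPKM to 27.4 and 27.4 FPKM (-2.28). PHO84 and HMX1 lost their calls without either 30 min library, and HEM3 and HEM13 also without 15 min replicate 1. Vitamin genes had 1 rise among 17, of the vitamin B6 transporter TPN1 (0.72), lost under both other scalings and without any 1 of the 6 libraries of 5, 15 and 30 min.

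Proteasome genes had 10 rises and 0 falls among 42, with a median change of 0.41. BLM10, a proteasome activator, rose from 107 and 109.9 FPKM to 200.5 and 251 FPKM (1.04 (SE 0.19, adjusted p = 0.0111)), the core subunit PRE8 from 529 and 522 FPKM to 1247 and 855 FPKM (0.97 (SE 0.20, adjusted p = 0.0165)), PRE2 from 472 and 454 FPKM to 763 and 771 FPKM (0.73) and the assembly factor UMP1 from 707 and 607 FPKM to 1110.2 and 1215 FPKM (0.83). The list held 2 rises with median-ratio scaling or with the 4 libraries of 15 and 30 min alone, 4 without either 5 min library, 6 without 15 min replicate 1, and 1 without 15 min replicate 2 or either 30 min library. BLM10 lost its call without 30 min replicate 2, PRE8 without the second 15 min or the first 30 min library, and PRE2 and UMP1 with median-ratio scaling and without 15 min replicate 2 or either 30 min library. Autophagy had 1 fall among 32, of ATG21 (37.4 and 52.6 FPKM to 19.2 and 27.8 FPKM, -0.91), lost without either 5 min library, 15 min replicate 2 or either 30 min library.

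Histone and cell cycle genes had 5 rises and 3 falls among 43, or 11.6 and 6.98%, close to the 9.49 and 6.73% of all genes. CLN3, the cyclin that starts the cell cycle, was low throughout and rose from 1.304 and 0.886 FPKM to 7.88 and 12.3 FPKM, a log2 change of 2.38 (SE 0.35, adjusted p = 0.00481). FAR1, a kinase inhibitor that arrests cells in G1, fell from 13.7 and 24.1 FPKM to 2.65 and 4.53 FPKM, a change of -2.09 (SE 0.33, adjusted p = 0.00675). Both copies of histone H3 named HHT2 fell, TBIG004271 from 3235 and 4153 FPKM to 1406 and 1351 FPKM (-1.41 (SE 0.18, adjusted p = 0.0029)) and TBIG003069 from 3366 and 4488 FPKM to 1493 and 1930.2 FPKM (-1.19 (SE 0.21, adjusted p = 0.00903)). Near-identical histone copies may share reads. FAR1 and HHT2 TBIG003069 lost their calls without 30 min replicate 1. YOX1, a repressor of cell cycle genes, rose from 14.7 and 22.8 FPKM to 67.8 and 48.7 FPKM (1.6 (SE 0.28, adjusted p = 0.0105)), also lost without 30 min replicate 1. Actin ACT1, often used as a reference, measured 1601 and 1408 FPKM at 15 min and 1793 and 1639 FPKM at 30 min (0.19 (SE 0.15, adjusted p = 0.436)).

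Several of the largest changes lay outside the lists. The gene named pi, for a papain inhibitor, at chromosome 8, 88452 to 89126, minus strand, had 119 and 52.96 FPKM at 0 min and 42.01 and 52.8 FPKM at 5 min, then 31.00 and 34.4 FPKM at 15 min and 513 and 437 FPKM at 30 min, a log2 change of 3.82 (SE 0.35, adjusted p = 0.000795), the largest rise of any gene. GGC1, the mitochondrial carrier of GTP and GDP, rose from 8.09 and 15.6 FPKM to 105 and 83.2 FPKM (2.94 (SE 0.39, adjusted p = 0.0033)), and rds1, named after a fission yeast gene, from 28.8 and 16.7 FPKM to 152 and 202 FPKM (2.94 (SE 0.31, adjusted p = 0.0012)). MTLA1, named after a mating-type protein, rose from 13.9 and 10.4 FPKM to 83.3 and 116 FPKM (2.93 (SE 0.56, adjusted p = 0.0136)), a call that needed 15 min replicate 2 and both 30 min libraries and was lost with a pseudocount of 0.1. GRP2, an aldehyde reductase family gene, fell from 12.9 and 9.54 FPKM to 0 and 0.874 FPKM (-3.14 (SE 0.41, adjusted p = 0.00302)).

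H. pseudoburtonii was compared over 3219 gene pairs with the same Swiss-Prot accession found once in each species, which may join paralogs. The difference between the species' changes from 15 to 30 min was called for 560 pairs, 17.4% of those tested. The change was higher in H. pseudoburtonii for 322 (10%) and lower for 238 (7.39%). With median-ratio scaling the balance turned, with 269 pairs higher and 315 lower. It compares 1 strain of each species, with values normalized separately. Of the 352 paired genes that rose in H. burtonii, 28 also rose in H. pseudoburtonii, 10 fell and 314 were not called, and the difference was called for 123. Of the 153 that fell in H. burtonii, 6 also fell, 37 rose and 110 were not called, and the difference was called for 115. Over all 3219 pairs, 300 rose and 152 fell in H. pseudoburtonii. The difference contains the H. burtonii change by which these genes were chosen, so the 123 and 115 are no separate test.

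The counts of called differences depended on single libraries, of which only those of 15 and 30 min were left out here. They moved by over 1.5 times without H. burtonii 15 min replicate 2 (207 and 189), 30 min replicate 1 (173 and 114) or 30 min replicate 2 (202 and 150), and without H. pseudoburtonii 30 min replicate 1 (205 and 164) or 2 (194 and 148).

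For the 60 paired mitochondrial ribosomal proteins the median change was 1.17 in H. burtonii and 0.07 in H. pseudoburtonii, where 1 rose. The difference was called for 22 of them, lower in H. pseudoburtonii each time, against the 7.39% of all pairs. The same held for 19 of 64 amino acid biosynthesis pairs, with 3 the other way, and for 11 of 24 aminoacyl-tRNA synthetases. Cytosolic ribosomal proteins had a median of 0.07 in H. burtonii and -0.65 in H. pseudoburtonii, with 17 of 57 differences called lower. Peroxisomal genes had 7 of 16 differences called higher and autophagy genes 7 of 23, against 10% of all pairs. Among 7 trehalose and glycogen pairs 5 differences were called higher. Other lists with large shares called higher included fermentation and acetate (4 of 6) and glycerol synthesis and use (3 of 4). They also included calcineurin and calcium transport (4 of 11, with 1 lower) and amino acid and peptide uptake (4 of 12). The lists named here are examples and no ranking.

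The 5 pairs with the largest differences in each direction were named. YHB1 measured 19.01 and 20.2 FPKM at 15 min and 84.2 and 96.7 FPKM at 30 min in H. pseudoburtonii, a change of 2.15 beside -4.15 in H. burtonii, a difference of 6.3 (SE 0.30, adjusted p = 1.65e-07). The permease put4 measured 11.7 and 27.5 FPKM at 15 min and 66.2 and 60.5 FPKM at 30 min, a change of 1.76 beside -4.02, a difference of 5.78 (SE 0.61, adjusted p = 0.000141). For ADH3, ACS1 and YAT1 the changes were 1.91, 2.24 and 3.23 in H. pseudoburtonii, with differences of 5.46, 5.4 and 5.1. These 5 genes rose in the 1 species over the same step in which they fell in the other. In H. pseudoburtonii YHB1 had 489 and 538 FPKM at 0 min and 16.2 and 26.2 FPKM at 5 min. Its 30 min level there was thus still below that of 0 min, while put4, ADH3, ACS1 and YAT1 ended above their 0 min levels. In the other direction pi measured 135 and 179.8 FPKM at 15 min and 102 and 115 FPKM at 30 min, a difference of -4.34 (SE 0.43, adjusted p = 8.62e-05), and GGC1 205 and 264 FPKM at 15 min and 201 and 162 FPKM at 30 min, a difference of -3.31 (SE 0.47, adjusted p = 0.000875). The differences of SPC24, a kinetochore protein not called in H. burtonii (1.01), YOX1 and TIF6 were -2.85, -2.81 and -2.74. In H. pseudoburtonii SPC24 fell, with a change of -1.84, and pi, GGC1, YOX1 and TIF6 were not called.

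**Figure D5:**
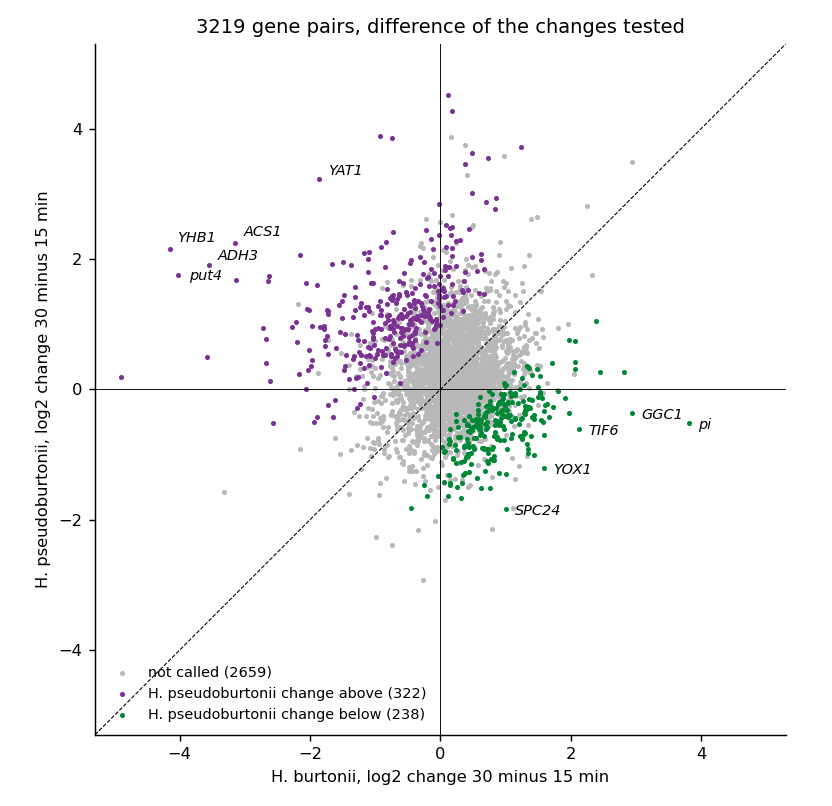
Each point is 1 of 3219 gene pairs, with the log2 change from 15 to 30 min in H. burtonii on the x axis and that in H. pseudoburtonii on the y axis, and a dashed line where both are equal. The 322 purple pairs, among them YHB1, put4, ADH3, ACS1 and YAT1, had the higher change in H. pseudoburtonii, and the 238 green pairs, among them pi and GGC1, the lower.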

How the data were processed

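The authors deposited FPKM values, in a gene table for each species, with no read counts. Per the submitters' processing notes, Cufflinks 2.2.1, TopHat2 2.1.1, FastQC 0.11.8 and CASAVA 1.8.2 were used. How Cufflinks scaled the libraries and divided reads among similar genes, the genome build and the strand setting are not given in the sources used. FPKM is relative to each library's total, so that a fall of abundant genes raises all others.

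Here log2(FPKM + 1) was fitted with limma 3.58.1 in R 4.3.3 (data.table, version 1.17.8), with a group per time over the 8 H. burtonii libraries, a trend in the prior variance and the contrast 30 minus 15 min. A gene was kept when 2 or more libraries reached 1 FPKM. Benjamini-Hochberg adjustment of p-values ran over all 6047 genes, called under 0.05, and a change on the log2(FPKM + 1) scale understates that of low genes. Species differences were tested in a limma fit of 16 libraries over 3219 of 3235 accession pairs. Tables and figures were made with matplotlib 3.10.9, numpy 2.4.6 and pandas 2.3.3 under Python 3.11.15.

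On simulated data with 200 of 6047 genes changed in this comparison, log2 changes of 1, 2 and 3 were recovered at 50, 98.5 and 98.5%, with 9 false among 174 calls. The changed genes all had a mean of at least 10 FPKM, and the noise was independent, with the spread of this fit. Recovery of lower genes and effects of scaling or of a single library are therefore not covered. Named genes were the 12 highest and 12 lowest called genes of at least 10 FPKM, up to 4 called members of each list by smallest adjusted p, a fixed set of stress genes, and the 5 largest called species differences in each direction. A gene that this rule would name is not reported here. The members, lists and this rule were chosen with earlier results of these data known. Name collisions in the lists were removed once the annotation had been read, ahead of these tests. Alternatives were other scalings, pseudocounts, filters, no trend, 4 libraries only, a replicate block and leaving out each library.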

Additional observations from a re-analysis of the deposited data

Results flagged for a closer look

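The genes below changed differently in the 2 species from 15 to 30 min, by limma's test of the difference between the species' changes (H. burtonii subtracted), adjusted over 3219 pairs. Of the named genes 88 had a tested pair, and the difference was called for 55, against 17.4% of all pairs. Many were named for a called H. burtonii change, which is part of the difference, and some for the difference itself. The count of 55 is therefore no separate test. All values are differences on the log2 scale and compare 1 strain of each species.

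The change was the lower in H. pseudoburtonii for 19 genes. Of genes in no list, pi, annotated as a papain inhibitor, stood at -4.34 and GGC1, a mitochondrial GTP/GDP carrier, at -3.31. Cell cycle and kinetochore genes were SPC24 at -2.85, YOX1 at -2.81 and CLN3 at -1.33. For protein synthesis the differences were -2.74 for TIF6, -1.93 for THS1, -1.89 for PRT1, -1.68 for DIA4, -1.57 for YML6, -1.31 for NAM9 and -0.97 for MRPL7. The RNA polymerase III subunit RPC25 differed by -1.56. Aspartokinase HOM3 differed by -2.54 and LYS4 by -1.33, and in H. pseudoburtonii their own changes were 0.27 and 0.74, neither called. The proton pump PMA1 differed by -1.25, SOL3 by -1.24, RBK1 by -1.0 and the proteasome subunit PRE8 by -0.87.

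It was the higher in H. pseudoburtonii for 36 genes. In 14 of the 55 genes both species passed their own test in opposite directions. YHB1 differed by 6.30, put4 by 5.78, ADH3 by 5.46, ACS1 by 5.4, YAT1 by 5.10, TMA10 by 4.81, cmk1 by 3.46 and PTR2 by 3.23. HSP30 differed by 5.10, but in H. pseudoburtonii it was low, with 0 and 9.38 FPKM at 15 min and 2.59 and 2.78 FPKM at 30 min. HSP104, with a difference of 4.07, measured 658 and 333 FPKM at 15 min and 768 and 565 FPKM at 30 min in H. pseudoburtonii and was not called there, and SIS1 differed by 1.49.

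Glycerol and sugar alcohol genes were among them. GPD TBIG000228 differed by 1.52 and measured 964 and 1123 FPKM at 15 min and 2252 and 2218 FPKM at 30 min in H. pseudoburtonii, and GPD TBIG005904 differed by 1.34. Glycerol kinase GUT1 differed by 2.02, SOU2 by 2.53 and ARDH by 0.89. The catalase CTT1, which rose in both species, differed by 2.48, with 20.7 and 22.4 FPKM at 15 min and 291 and 300.4 FPKM at 30 min in H. pseudoburtonii. For signalling and stress regulation HOG1 differed by 1.15, MSN4 by 2.46, RCN1 by 1.59 and PMC1 by 2.92. In storage and central carbon TPS1 differed by 2.23, TPS2 by 1.11, GPH1 by 2.03, PFK1 by 1.99 and MLS1 by 2.73, and the alternative oxidase STO1 by 3.10. Lipid and sterol genes were INO1 at 3.28, ERG25 at 3.45 and sre1 at 2.92. The rest were PHO11 at 4.37, HMX1 at 3.24, SCW11 at 2.85, ATG21 at 1.84, DBP8 at 1.33 and NOP13 at 1.23. In H. pseudoburtonii PHO11 was low, with 3.21 and 1.51 FPKM at 15 min and 13.98 and 6.82 FPKM at 30 min. ERG25 measured 9.59 and 48.9 FPKM at 15 min and 41.7 and 35.4 FPKM at 30 min there, with its 15 min replicates far apart. Neither was called in H. pseudoburtonii.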

How the results depend on the processing

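Precision is limited by 2 libraries per time, and the absence of read counts leaves counting error unknown. Rises numbered 284 with median-ratio and 376 with quantile scaling, against 574, and falls 482 and 501, against 407. With the 4 libraries of 15 and 30 min alone 366 genes rose, and at a change of at least 2-fold 318 did. A pseudocount of 0.1 or 10, no filter, a filter at 10 FPKM and no trend left both counts within 1.5 times. Leaving out 1 library gave 78 to 737 rises and 162 to 502 falls, the fewest without 30 min replicate 1 and the most without 0 min replicate 2. Rises numbered 208 without 15 min replicate 2, 143 without 30 min replicate 2, and 265 and 266 without 5 min replicate 1 and 2. Leaving out 1 library gave, for the species difference, 173 to 370 pairs higher and 114 to 227 lower in H. pseudoburtonii, both the fewest without 30 min replicate 1 of H. burtonii, and median-ratio scaling gave 269 and 315 against 322 and 238. Of 981 called genes, 0 of those tested had the opposite sign in any of these fits. Only the other scalings could have turned a sign, since both 30 min libraries of every called gene lay on 1 side of both 15 min libraries.

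The replicate numbers do not pair the libraries by the labels, and the deviations of same-numbered 15 and 30 min libraries correlated at -0.164. A fit with the replicate number as a block gave 552 rises and 432 falls, and 324 and 223 for the pairs. With the 15 min numbers exchanged, a choice made after seeing the data, the block gave 313 and 296.

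Of 123 named genes that passed the test, 68 kept their call in each alternative (the exchanged block was not run for single genes) and 55 lost it in 1 or more. Of the 28 that did not pass, 6 passed in some alternative (HAK1, gut2, SOD1, GCY1 TBIG001529, ENA5 TBIG001727 and SOD2 TBIG002547). Of the same 28 genes 6 turned sign. With median-ratio scaling SOD2 TBIG001780 stood at -0.0929, ENA5 TBIG002789 at -0.0231 and RHR2 TBIG004428 at -0.0444. Leaving out 1 library at a time gave -0.363 to 0.0466 for HSP12, -0.591 to 0.287 for CNA1 (0.163 in another case), -0.374 to 0.475 for SOD2 TBIG001780 (-0.169 in another case), -0.0306 to 0.28 for ENA5 TBIG002789, and -0.147 to 0.0271 for TKT TBIG003750 (0.0113 in another case). The 5 highest and 5 lowest species differences kept their call in each alternative run for the pairs, where no library of 0 or 5 min was left out. The cause of these shifts was not tested. Where 1 library stood for a time, limma took its spread from the other groups.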

Other observations

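Genes without annotation also moved. Of 1074 tested, 66 rose and 98 fell, 6.1 and 9.1%. The 4 below were picked after their values were seen, as those of the largest changes among unannotated genes of at least 10 FPKM. The gene TBIG000158 (chromosome 1, 314405 to 315331, minus strand) had 2.31 and 0.669 FPKM at 0 min and 5.08 and 4.43 FPKM at 5 min, then 202 and 237 FPKM at 15 min and 2055 and 2176 FPKM at 30 min, a log2 change of 3.27 (SE 0.31, adjusted p = 0.00091). It stood at no more than a few FPKM at 0 and 5 min and rose at each later time. The gene TBIG003924 (chromosome 4, 1412519 to 1413604, plus strand) had 195 and 116 FPKM at 0 min and 49.01 and 41.5 FPKM at 5 min, then 30.3 and 15.4 FPKM at 15 min and 169.5 and 162 FPKM at 30 min, a change of 2.88 (SE 0.35, adjusted p = 0.00221), so that it came back to the range of the 0 min libraries. The gene TBIG001833 (chromosome 2, 964316 to 966253, plus strand) had 126 and 174 FPKM at 0 min and 403 and 344 FPKM at 5 min, then 329 and 535 FPKM at 15 min and 9.51 and 14.02 FPKM at 30 min, a change of -5.07 (SE 0.30, adjusted p = 0.000111), the largest fall of all genes. The gene TBIG004757 (chromosome 6, 194363 to 195331, minus strand) fell from 84.2 and 70.3 FPKM to 3.25 and 3.16 FPKM, a change of -4.21 (SE 0.22, adjusted p = 6.13e-05).

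The place of the called genes relative to 0 min is given as a description with no test, since the 15 and 30 min values chose them. Of the 407 fallen genes 156 stood above both 0 min libraries in both 15 min libraries, and 153 stood below, 38.3 and 37.6%. Over all genes these shares were 46.5 and 15.8%, and over the 574 risen genes 47.2 and 20.9%. At 30 min 332 of the fallen genes lay below both 0 min libraries and 27 above, 81.6 and 6.6%. Over all genes these shares were 18.1% below and 57.5% above. Of the risen genes 540 lay above both 0 min libraries at 30 min and 9 below. By chromosome, the share of genes that rose ran from 7.3% on chromosome 7 to 12.9% on chromosome 8, and the share that fell from 5.3% on chromosome 2 to 10.3% on chromosome 7.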
